A study of Mus musculus with 7 samples.

Results

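The genes of the unfolded protein response and of the amino acid response were followed in C2C12 cells depleted of lnc-SMaRT. They were 40 genes, taken from the expression table by their symbols and not by their values, out of 11642 rows, and all 40 were found and tested. They comprised 14 chaperones and foldases of the endoplasmic reticulum (ER), 4 genes of ER-associated degradation, 4 stress sensor genes (Xbp1, Atf6, Ern1 and Eif2ak3), 7 ATF4 and stress response genes, 8 enzymes of amino acid and one-carbon metabolism and 3 tRNA synthetases. C2C12 is an established line of mouse myoblasts, undifferentiated muscle cells that fuse into myotubes when serum is reduced. The 4 RNA-Seq samples compared here were total RNA of C2C12 cells collected on day 2 of differentiation (DM2). In 2 samples the cells had received a scramble siRNA (si-SCR) and in 2 samples siRNA #1 against lnc-SMaRT, a muscle long noncoding RNA (si-SMaRT). Every sample had been transfected, so no untreated cells were compared. A single siRNA against 1 transcript in 1 cell line was used, and the study describes the replicates as 2 independent cell populations. Besides these, RNA pulled down with probes against lnc-SMaRT, RNA pulled down with LacZ probes and the input were sequenced once each.

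When unfolded proteins accumulate in the ER, cells start 3 signalling arms from sensors in its membrane. ATF6 is cleaved to a transcription factor and IRE1 (Ern1) splices Xbp1 mRNA, and both arms feed the transcription of ER chaperones, foldases and degradation factors. PERK (Eif2ak3) phosphorylates the initiation factor eIF2, which lowers general translation and favours that of Atf4. Because amino acid shortage reaches eIF2 through another kinase, ATF4 stands where both stresses meet, and it drives genes of amino acid synthesis, amino acid transport and tRNA charging. In skeletal muscle, parts of this response are known to be active during normal myoblast differentiation.

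The sets are commonly told apart by short DNA elements of their promoters, so the elements of several genes the results turn on are given here. The ER stress response element (ERSE) is CCAAT, 9 further bases and CCACG, and is read by ATF6 together with NF-Y. ERSE-II is ATTGG, 1 further base and CCACG. The C/EBP-ATF element, through which ATF4 acts, was searched as TGATG, 1 further base and AA. RefSeq promoters of GRCm38.p6 reach from 250 bases before to 50 bases after the start of the gene, and 37 of the 40 genes had one. The exact matches below are 5′ to 3′ on the strand on which they read, with the element in capitals.
Hspa5 ERSE, chr2:34772020-34772048, plus strand: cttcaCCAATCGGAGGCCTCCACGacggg
Canx ERSE, chr11:50325795-50325823, minus strand: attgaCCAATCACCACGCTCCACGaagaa
Pdia6 ERSE, chr12:17266486-17266514, plus strand: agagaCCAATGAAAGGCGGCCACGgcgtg
Herpud1 ERSE-II, chr8:94386368-94386396, plus strand: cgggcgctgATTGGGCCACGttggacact
Herpud1 C/EBP-ATF element, chr8:94386306-94386335, minus strand: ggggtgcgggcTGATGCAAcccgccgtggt
Trib3 C/EBP-ATF element, chr2:152344028-152344057, plus strand: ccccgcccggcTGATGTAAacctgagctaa
Chac1 C/EBP-ATF element, chr2:119351038-119351067, minus strand: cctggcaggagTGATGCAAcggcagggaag
Asns C/EBP-ATF element, chr6:7693214-7693243, minus strand: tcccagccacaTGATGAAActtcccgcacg
Gars C/EBP-ATF element, chr6:55037960-55037989, minus strand: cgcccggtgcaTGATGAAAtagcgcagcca

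An ERSE stood in the promoters of 7 of 12 chaperone and foldase genes, in 1 of 4 degradation genes (Syvn1) and in 0 of 11 amino acid genes (the enzymes and tRNA synthetases). Over all 32851 promoters of the same length, 0.119% held an ERSE. The 7 genes were Hspa5, Hsp90b1 with 2 copies, Calr, Canx, Pdia6, Dnajc3 and Creld2. ERSE-II was found in Dnajb11 and Herpud1 and in 0.0365% of all promoters. The C/EBP-ATF element was distributed the other way. It stood in 4 of 11 amino acid genes (Asns, Pycr1, Aars and Gars), in Trib3, Chac1 and Herpud1, and in 0 of 12 chaperone genes, against 3.97% of all promoters. Herpud1, whose protein holds the degradation machinery together at the ER membrane, was the only one of the 37 with matches to elements of both kinds. The unfolded protein response element, TGACG followed directly by TGG, was in 0 of 37 and in 0.676% of all promoters. These shares are per promoter, while the members are counted per gene. Over the 27025 genes with a promoter, 0.137% held an ERSE, 0.0444% an ERSE-II, 4.51% a C/EBP-ATF element and 0.714% an unfolded protein response element. Both strands were searched, no match to one element overlapped a match to another, and a match is a description of the letters only. Pdia3, Ddit3 and Atf4 held none of the 4 elements in this window.

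**Figure D1:**
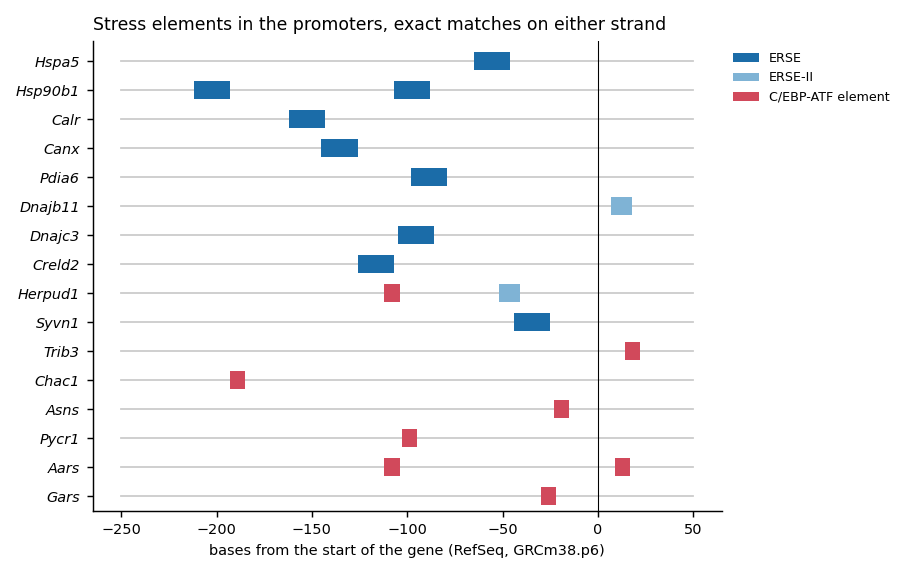
Position of exact matches to 3 stress elements in the promoters of the 16 genes that held any, in bases from the start of the gene (0), with grey lines for the window searched. ERSE and ERSE-II lie in chaperone and degradation genes and the C/EBP-ATF element in stress, amino acid and tRNA synthetase genes, with Herpud1 holding both kinds.

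lnc-SMaRT itself, the target of the siRNA, measured 19.1 and 15.9 RPKM (reads per kilobase of gene, scaled to the library size) in si-SCR and 2.88 and 3.65 in si-SMaRT, which gave a log2 fold change of -2.39 (SE 0.28, adjusted p = 0.000882). Effective library sizes were between 11291255 and 14312935 reads, and a member had between 57 reads (Sdf2l1) and 21058 reads (Canx) in a sample. All 8 muscle differentiation markers were in the table, and their summed RPKM was 8464 and 8911 in si-SCR and 6449 and 4313 in si-SMaRT. In bulk RNA, fewer cells of a kind and less RNA per cell cannot be told apart. Of the 8 markers, 0 passed the adjusted test (0.505% of all genes did) and 1 passed with voom (0.929% of all genes did). An unadjusted p under 0.05 in limma was reached by 3 (37.5%, against 9.09% of all genes). In 6 both si-SMaRT samples were lower (75%, against 20.4% of all genes). The 6 markers of proliferating cells summed to 151 and 129 against 148 and 196 RPKM. All 6 had a log2 fold change above 0, 3 were higher in both si-SMaRT samples (50%, against 20.2% of all genes), and 0 passed the adjusted test. Of 6 markers of other cell types only Cd68 was in the table, at about 1 RPKM. The si-SMaRT replicates stood further apart than the si-SCR replicates, with a median absolute log2 difference of 0.418 against 0.185 over all genes and 0.307 against 0.140 over the 40 genes. In the study's read statistics, si-SMaRT 1 lost a much larger share of its read pairs to rRNA and tRNA filtering than any other sample. The part of this loss in the differences between the replicates was not tested. Across the 40 genes, si-SMaRT 2 minus si-SMaRT 1 ran against the share of G and C in the transcript (Spearman's rho -0.83, n = 40 genes, which share the same 2 libraries). For si-SCR 2 minus si-SCR 1 the rho was 0.27. Over all 10956 genes with a GC content these were -0.85 and 0.38. Medians of gene groups are therefore also given after the trend with GC content was removed from every sample.

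**Figure D2:**
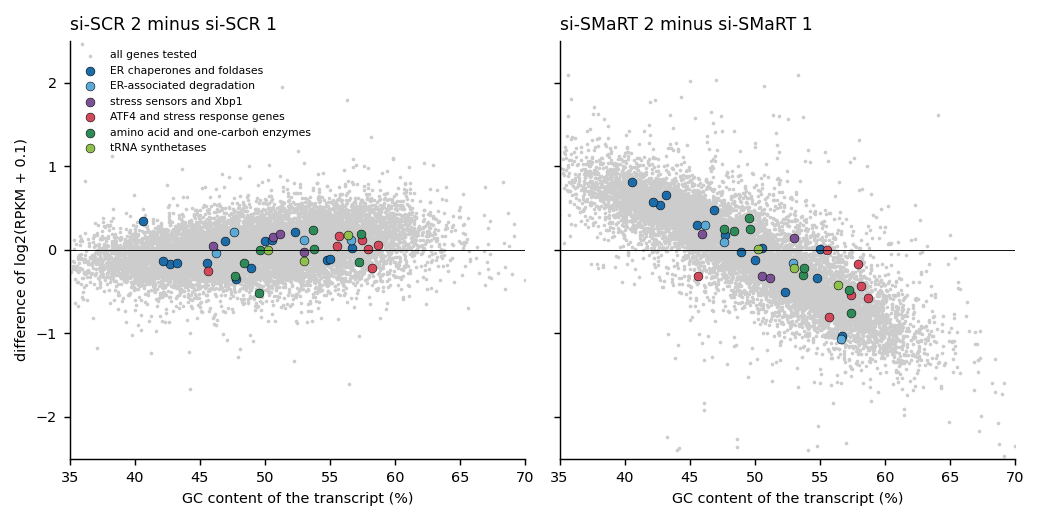
Difference of log2(RPKM + 0.1) between the replicates of each group against the GC content of the transcript in percent, for the 40 genes coloured by role and all genes tested in grey. In si-SMaRT the GC-rich genes are mostly lower and the GC-poor genes higher in replicate 2 than in replicate 1 (rho -0.85 over all genes), while in si-SCR the slope is weaker and of the opposite sign (rho 0.38).

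Of the 40 genes, 0 passed the adjusted p of 0.05 in limma with Benjamini-Hochberg adjustment, where 0.505% of all 11086 genes tested did. With voom on the recovered reads 1 passed (Trib3), against 0.929% of all genes. An unadjusted p under 0.05 was reached by 1 gene (Trib3, 2.5% of the 40), against 9.09% of all genes. In 4 genes both si-SMaRT samples were above both si-SCR samples (10% of the 40, against 20.2% of all genes), and in 11 genes both were below (27.5%, against 20.4%). The other 25 overlapped. The log2 fold change was above 0 in 16 and below 0 in 24, with a median of -0.06 where the median of all genes was 0.02. With the GC trend removed, 1 of the 40 passed the adjusted test (Trib3), against 4.57% of all genes, and 9 had an unadjusted p under 0.05, against 25.9%. The median was then -0.07, and 0.01 over all genes. With 2 samples a group the 95% intervals were wide, from 1.09 to 1.5 log2 units from end to end, and 39 of the 40 held 0.

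**Figure D3:**
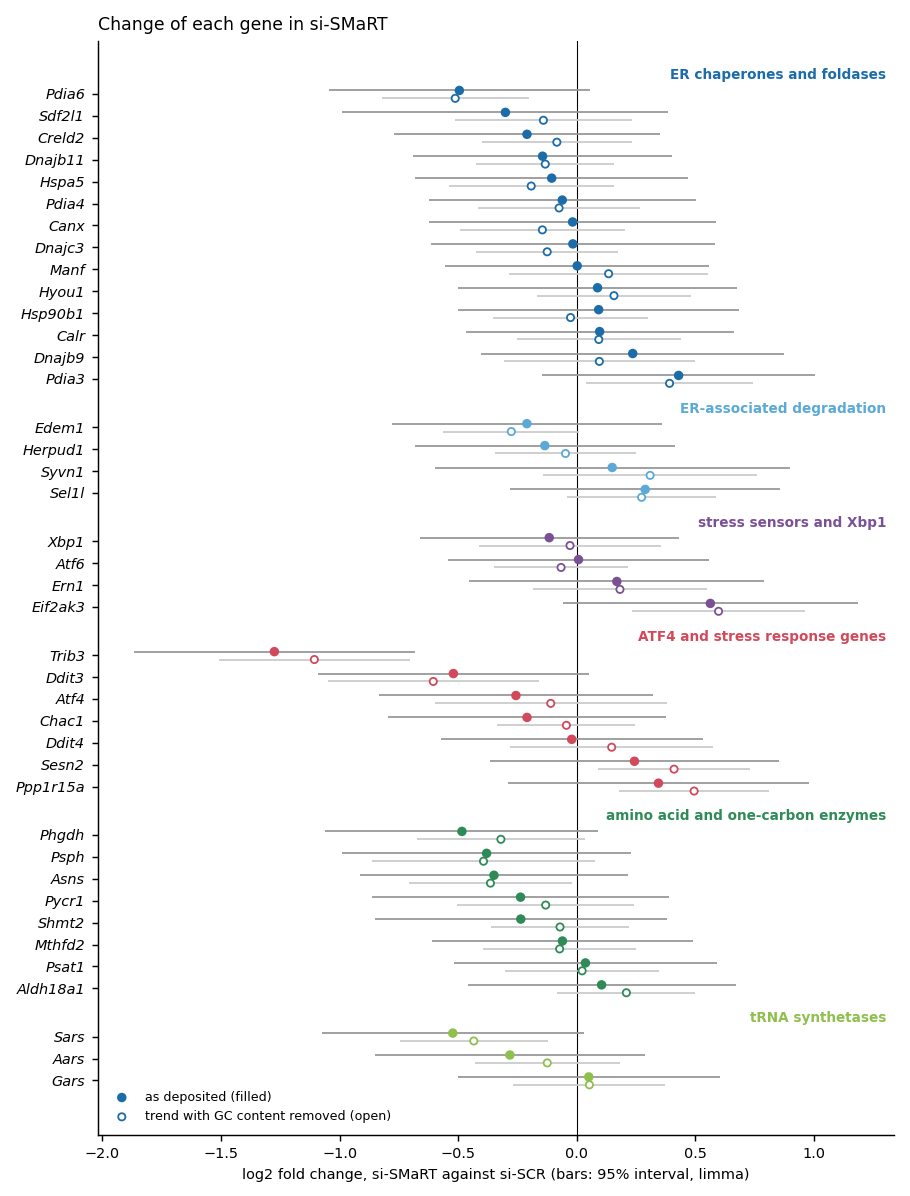
Log2 fold change of each of the 40 genes in si-SMaRT against si-SCR by role, on log2(RPKM + 0.1), as deposited (filled points) and with the trend with GC content removed (open points), with 95% intervals from limma. Trib3 is the one gene whose interval as deposited lies clear of 0.

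No shift of the ER chaperones and foldases was detectable at this precision. Their log2 fold changes ran from -0.50 (Pdia6) to 0.43 (Pdia3), 6 above and 8 below 0, and the median was -0.02 (-0.08 with the GC trend removed). None of the 14 passed the test, their lowest adjusted p being 0.605, and 0 had an unadjusted p under 0.05. Hspa5 encodes BiP, the Hsp70 chaperone of the ER that also holds the sensors inactive, and lies at chr2:34771970-34777547 of GRCm38 (GENCODE M21). It measured 256 and 229 RPKM in the si-SCR samples and 203 and 249.7 in the si-SMaRT samples. The samples overlapped, si-SMaRT 2 lying between the controls, and the log2 fold change was -0.11 (SE 0.27, 95% interval -0.68 to 0.47, adjusted p = 0.946). Canx, the membrane-bound lectin chaperone calnexin, had the highest level of the group at 273 and 249 RPKM in the si-SCR samples and 212 and 314 in the si-SMaRT samples. The si-SMaRT samples were here the lowest and the highest of the 4, and the log2 fold change was -0.02 (SE 0.29, adjusted p = 0.991). Its soluble relative Calr had means of 218 ± 10.9 in si-SCR and 234 ± 14.1 in si-SMaRT (SD, n = 2 each). For the ER Hsp90, Hsp90b1, these were 167 ± 14.2 and 181 ± 47.02, in a row that also held the predicted genes Gm15344 and Gm25745.

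The foldases at the ends of this range lay in opposite directions, neither past the test. Pdia3 is the disulphide isomerase that works with calnexin and calreticulin on glycoproteins. It measured 69.5 and 74.8 RPKM in the si-SCR samples and 82.5 and 114 in the si-SMaRT samples. The groups did not overlap, si-SMaRT being higher, and the log2 fold change was 0.43 (SE 0.27, 95% interval -0.14 to 1.00, adjusted p = 0.691). Pdia6, an isomerase that acts on BiP clients and on the sensors, measured 73.6 and 63.1 RPKM in the si-SCR samples and 48.7 and 47.9 in the si-SMaRT samples. The si-SMaRT values were close to each other and below both controls, and the log2 fold change was -0.50 (SE 0.26, 95% interval -1.05 to 0.06, adjusted p = 0.605). The ratio of Pdia3 to Pdia6 within a sample, chosen after the values were seen, was 0.944 and 1.18 in si-SCR and 1.69 and 2.38 in si-SMaRT. With the GC trend removed the log2 fold changes were 0.39 and -0.51, with adjusted p = 0.157 and 0.0694 in limma.

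The remaining foldase, Pdia4, in a row shared with Mir704, had 52.5 ± 8.96 RPKM in si-SCR and 50.04 ± 4.22 in si-SMaRT (SD, n = 2). Among the J-domain co-chaperones of BiP, Dnajb11 measured 34.1 and 36.98 RPKM in the si-SCR samples and 31.9 and 32.3 in the si-SMaRT samples. Its si-SMaRT values were both below the controls by a small margin, with a log2 fold change of -0.14. Dnajb9, which is also a textbook target of spliced Xbp1, measured 11.02 and 13.96 RPKM in the si-SCR samples and 11.02 and 19.4 in the si-SMaRT samples. The si-SMaRT samples lay at the level of the lower control and above both controls, and its transcript had the lowest GC content of the 40 genes, 40.6%. Dnajc3, an inhibitor of PERK signalling, behaved alike, with 20.5 RPKM in si-SMaRT 1 and 32.4 in si-SMaRT 2 around 27.6 and 24.7 in si-SCR. The GC-rich Sdf2l1, a partner of the BiP complex, went the other way between the replicates, with 7.43 in si-SMaRT 1 and 3.59 in si-SMaRT 2 against 6.35 and 6.45. Hyou1, the nucleotide exchange factor of BiP, Creld2 and Manf, small secreted or resident proteins of the stressed ER, had log2 fold changes of 0.09, -0.21 and 0.00, and their samples overlapped. The row of Manf also held Rbm15b.

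The 4 degradation genes showed no common direction, with a median log2 fold change of 0.01 (0.11 with the GC trend removed) and a lowest adjusted p of 0.824. Herpud1 measured 50.1 and 54.3 RPKM in the si-SCR samples and 50.2 and 44.9 in the si-SMaRT samples. One si-SMaRT sample lay just above the lower control and the other was below both, and the log2 fold change was -0.13 (SE 0.26, adjusted p = 0.927). Sel1l, the adaptor of the ubiquitin ligase Syvn1 (HRD1), measured 7.42 and 8.61 RPKM in the si-SCR samples and 9.48 and 10.1 in the si-SMaRT samples. The groups did not overlap, si-SMaRT being higher, with a log2 fold change of 0.29 (SE 0.27, adjusted p = 0.824). Edem1, the lectin that hands misfolded glycoproteins to degradation, measured 10.3 and 10.03 RPKM in the si-SCR samples and 7.94 and 9.72 in the si-SMaRT samples. Both were below the controls, si-SMaRT 2 by a narrow margin, with a log2 fold change of -0.21 (SE 0.27, adjusted p = 0.877). Syvn1 was the least abundant of the 40 genes, and its si-SMaRT values of 2.84 and 1.30 RPKM lay on either side of 1.66 and 1.81 in si-SCR.

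The 4 sensor genes had a median log2 fold change of 0.09 (0.08 with the GC trend removed), 3 above and 1 below 0, and Eif2ak3 stood highest. It measured 2.26 and 2.59 RPKM in the si-SCR samples and 4.095 and 3.21 in the si-SMaRT samples. Recovered reads were 155 to 251 a sample, which are lower limits. Both si-SMaRT values were above both controls, and the log2 fold change was 0.56 (SE 0.30, 95% interval -0.06 to 1.19, adjusted p = 0.604). With the GC trend removed it was 0.60 (adjusted p = 0.0698), the highest of the 40 on either scale. Xbp1, the transcription factor whose mRNA IRE1 splices, measured 50.1 and 49.1 RPKM in the si-SCR samples and 43.5 and 48.1 in the si-SMaRT samples. Both si-SMaRT samples were below the controls, si-SMaRT 2 by under 1 RPKM, and the log2 fold change was -0.12 (SE 0.26, adjusted p = 0.938). Gene-level values do not separate spliced from unspliced Xbp1. Ern1 had 2.51 and 2.80 RPKM against 3.35 and 2.68, and Atf6 had 25.6 and 26.4 against 24.5 and 27.97, and both overlapped between the groups.

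Of the 40 genes, Trib3 had the lowest log2 fold change and the lowest p-value. It lies at chr2:152337422-152344032 on the minus strand of GRCm38. It encodes a pseudokinase that ATF4 and CHOP induce and that in turn restrains both ATF4 and Akt signalling. It measured 13.9 and 11.9 RPKM in the si-SCR samples and 6.13 and 4.504 in the si-SMaRT samples, on 374, 357, 147 and 137 reads. Both replicates of si-SMaRT were far below both controls. Their mean was 0.412 of the si-SCR mean, 5.32 ± 1.15 against 12.9 ± 1.43 RPKM (SD, n = 2), and the log2 fold change was -1.28 (SE 0.28, 95% interval -1.87 to -0.68, adjusted p = 0.0528). By p-value it ranked 61 among the 11086 genes tested, and the adjusted p lay just outside 0.05. With the GC trend removed it was -1.11 (SE 0.18) and passed, with an adjusted p of 0.0173. It passed in 8 of the 15 alternatives, which included fits with a sample left out and a crossed pairing chosen after seeing the data. The log2 fold change lay between -1.49 and -1.06 in all of these, while the adjusted p in limma ran from 2.4e-10 without si-SMaRT 1 to 1.00 without si-SCR 1, and it was 0.934 without si-SCR 2. The summed RPKM of the muscle markers, given above, was lower in the same 2 samples, though not every marker was. The part of muscle markers in the value of Trib3 was not tested.

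Atf4, the transcription factor at the head of this set, had the highest level of all 40 genes and lies at chr15:80255184-80257541. It measured 428 and 440.2 RPKM in the si-SCR samples and 364 and 362 in the si-SMaRT samples. The si-SMaRT samples were nearly equal to each other and both below the controls, with a log2 fold change of -0.26 (SE 0.27, 95% interval -0.83 to 0.32, adjusted p = 0.852). Trib3 amounted to 3.25% and 2.70% of the RPKM of Atf4 in si-SCR and to 1.68% and 1.24% in si-SMaRT, a ratio chosen after the values were seen. Ddit3, which encodes CHOP, the factor linked to cell death under lasting stress, measured 21.04 and 17.6 RPKM in the si-SCR samples and 14.9 and 11.99 in the si-SMaRT samples. Both si-SMaRT samples were below both controls, with a log2 fold change of -0.52 (SE 0.27, 95% interval -1.09 to 0.05, adjusted p = 0.597). Ppp1r15a (GADD34), which returns the phosphatase to eIF2 and so ends the translational arrest, measured 8.15 and 9.11 RPKM in the si-SCR samples and 14.6 and 8.25 in the si-SMaRT samples. One si-SMaRT sample was far above the controls and the other between them, and the log2 fold change was 0.34 (SE 0.30, adjusted p = 0.810). It was 0.75 without si-SMaRT 2 and -0.061 without si-SMaRT 1, so its sign rested on 1 library.

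Of the other genes of this set, Chac1, which degrades glutathione, had 18.4 and 19.9 RPKM in si-SCR against 20.02 and 13.7 in si-SMaRT. Ddit4 and Sesn2, which both restrain mTORC1, had 18.9 ± 0.0900 against 18.7 ± 1.54 and 6.07 ± 0.164 against 7.36 ± 2.102 RPKM (SD, n = 2). These 3 overlapped between the groups. The 7 genes had a median log2 fold change of -0.21, and 5 were below 0. Apart from Ddit3 their transcripts were GC-rich, with a median over the 7 of 57.4% against 49.5% for all genes. All but Atf4 were lower in si-SMaRT 2 than in si-SMaRT 1 by 0.17 to 0.81 log2 units. The median log2 fold change was -0.04 once the GC trend was removed.

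Among the amino acid and one-carbon enzymes, 6 of 8 log2 fold changes were below 0, with a median of -0.24 (-0.10 with the GC trend removed). None passed the test, the lowest adjusted p being 0.633. Asns, which makes asparagine and is a standard read-out of ATF4, measured 86.2 and 69.4 RPKM in the si-SCR samples and 55.8 and 66.01 in the si-SMaRT samples. Both si-SMaRT samples were below the controls, si-SMaRT 2 by a small margin, and the log2 fold change was -0.35 (SE 0.27, 95% interval -0.91 to 0.22, adjusted p = 0.775). Serine synthesis from glycolytic intermediates runs through Phgdh, Psat1 and Psph in turn. Phgdh measured 83.2 and 74.97 RPKM in the si-SCR samples and 66.7 and 47.7 in the si-SMaRT samples. The groups did not overlap, si-SMaRT being lower, with a log2 fold change of -0.48 (SE 0.27, adjusted p = 0.633). Psat1, the next step, measured 88.2 and 78.9 RPKM in the si-SCR samples and 79.3 and 92.4 in the si-SMaRT samples. Here the groups overlapped, with a log2 fold change of 0.04 (SE 0.26, adjusted p = 0.982). Psph, the last step, had 10.4 ± 2.65 against 7.89 ± 1.48 RPKM (SD, n = 2), with a log2 fold change of -0.38.

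Shmt2 and Mthfd2 pass one-carbon units through mitochondria. Shmt2 measured 57.8 and 65.6 RPKM in the si-SCR samples and 68.05 and 40.1 in the si-SMaRT samples. Mthfd2 measured 41.7 and 41.6 RPKM in the si-SCR samples and 36.6 and 43.6 in the si-SMaRT samples. Both overlapped between the groups, Shmt2 with the lowest and the highest value in si-SMaRT. Aldh18a1 and Pycr1 catalyse the first and last steps from glutamate to proline. Aldh18a1 measured 18.3 and 21.6 RPKM in the si-SCR samples and 23.8 and 19.3 in the si-SMaRT samples, with a log2 fold change of 0.10 (SE 0.27, adjusted p = 0.946). Pycr1 was expressed at a low level, at 2.55 and 2.57 RPKM in the si-SCR samples and 2.34 and 1.99 in the si-SMaRT samples. Its si-SMaRT values were both below the controls, with a log2 fold change of -0.24, whereas Aldh18a1 overlapped.

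The 3 tRNA synthetases spread from 0.05 to -0.52, with a median log2 fold change of -0.28 (-0.12 with the GC trend removed). Gars, which charges tRNA with glycine, measured 139.97 and 139 RPKM in the si-SCR samples and 144 and 145 in the si-SMaRT samples. Its replicates differed by under 1 RPKM and the si-SMaRT samples were above the controls by a ratio of means of 1.04, with a log2 fold change of 0.05 (SE 0.26, adjusted p = 0.976). Sars, which charges tRNA with serine, measured 68.04 and 62.1 RPKM in the si-SCR samples and 48.7 and 41.9 in the si-SMaRT samples. Here si-SMaRT was lower without overlap, with a log2 fold change of -0.52 (SE 0.26, 95% interval -1.07 to 0.03, adjusted p = 0.577). Aars, for alanine, had 48.1 ± 4.07 against 39.9 ± 8.19 RPKM (SD, n = 2) and overlapped, with a log2 fold change of -0.28.

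**Figure D4:**
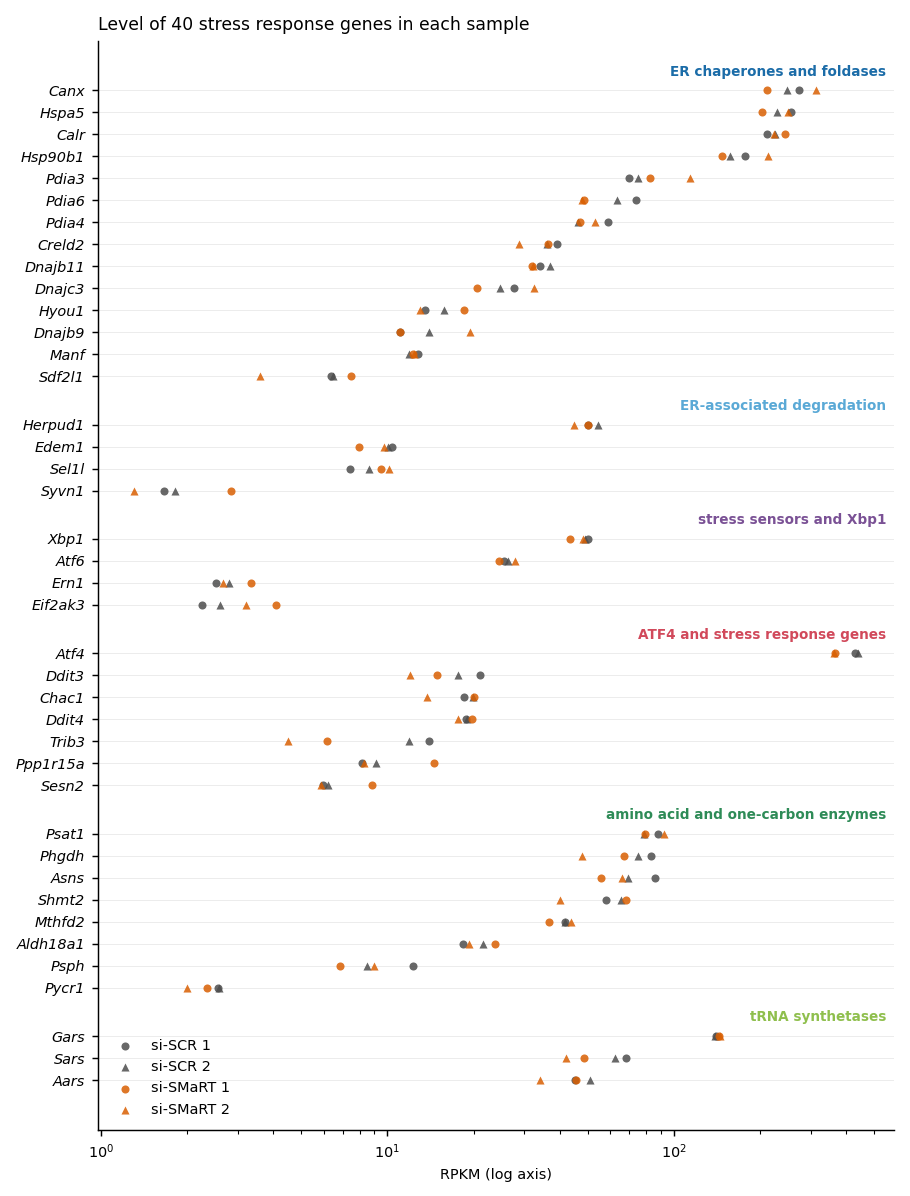
RPKM on a log axis of the 40 genes in each of the 4 samples, by role and ordered by the si-SCR mean, with circles for replicate 1 and triangles for replicate 2. Atf4 and the major chaperones lie above 100 RPKM and Syvn1, Eif2ak3, Pycr1 and Ern1 below 5 in every sample, and Trib3 shows the widest gap between the groups.

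RPKM is per length, so that levels can be set beside each other. In si-SCR, Atf4 at 434 ± 8.95 RPKM (SD, n = 2) was above 98.95% of all rows. Canx followed at 261 ± 16.8, Hspa5 at 243 ± 19.6, Calr at 218 ± 10.9 and Hsp90b1 at 167 ± 14.2, of which Canx and Hspa5 overlapped within their samples. Gars came next, and then Psat1, Phgdh and Asns between 77.8 and 83.6, which could not be ordered within their spread. The median of the chaperones and foldases was 45.00 RPKM and that of the 11 amino acid genes 61.7, against 6.91 for all rows. At the low end, Syvn1 at 1.73 ± 0.108 was above 19.3% of rows, and Eif2ak3, Pycr1 and Ern1 lay between 2.43 and 2.66.

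The direct comparison of ER chaperones with amino acid genes gave medians of -0.02 for the 14 chaperones and foldases and -0.24 for the 11 amino acid genes, 3 of which were above 0 and 8 below. The difference was 0.22 log2 units. Taken sample by sample, the difference had an SD between replicates, pooled over the groups, of 0.15. That SD is not an error of the 0.22. Sample by sample, the median difference of the chaperones from the si-SCR mean was -0.15 in si-SMaRT 1 and 0.03 in si-SMaRT 2, where the controls lay at 0.06 and -0.06. For the amino acid genes it was -0.12 and -0.23, where the controls lay within 0.01 of 0. The controls mirror each other around 0 by construction, so their nearness to 0 does not measure their spread. In single amino acid genes, si-SCR 2 minus si-SCR 1 ran from -0.52 (Psph) to 0.23 (Aldh18a1). As deposited, the median of the amino acid genes was below the controls in both si-SMaRT samples, but below the chaperones in si-SMaRT 2 only. Gene by gene, 4 of the 11 were below both controls in both si-SMaRT samples (36.4%, against 20.4% of all genes). In 1 gene both were above (9.09%, against 20.2%), and 6 overlapped. Of the 14 chaperones and foldases, 2 were below (14.3%), 1 was above (7.14%) and 11 overlapped. In si-SMaRT 1 the median of the amino acid genes was above that of the chaperones. The difference of the medians was -0.025 without si-SMaRT 2 and 0.26 without si-SMaRT 1. The median GC content was 48.3% for the chaperones and 53.0% for the amino acid genes. With the GC trend removed, the medians were -0.08 and -0.12 and their difference 0.045. The pooled SD of the sample-by-sample differences was then 0.033. The chaperones then lay at -0.12 in si-SMaRT 1 and -0.02 in si-SMaRT 2, with the controls at 0.03 and -0.03. The amino acid genes lay at -0.21 and -0.05, with the controls at 0.04 and -0.04, and so below the chaperones in both si-SMaRT samples. The order of the sets in si-SMaRT 1 therefore turned with the removal of the trend. Group sizes differ and members of a group are not replicates, so no test was run on the medians.

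**Figure D5:**
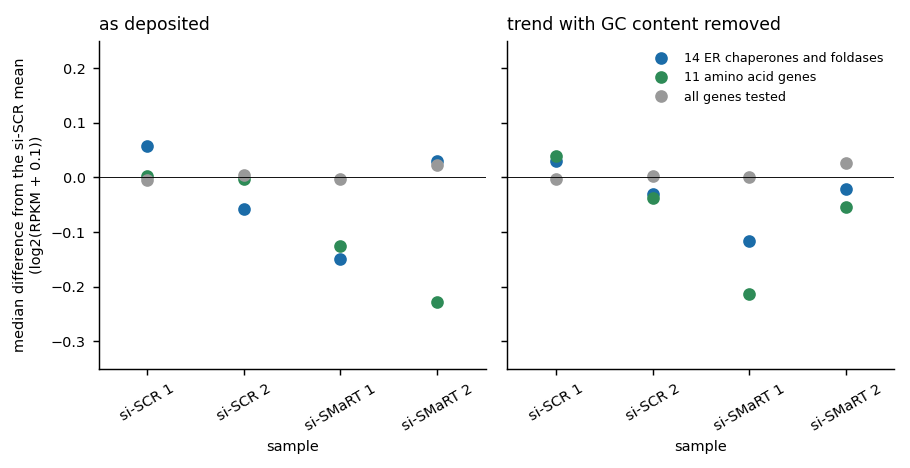
Median over the 14 ER chaperones and foldases, the 11 amino acid genes and all genes tested of the difference of log2(RPKM + 0.1) from the si-SCR mean of each gene, in each of the 4 samples, as deposited and with the trend with GC content removed. As deposited the amino acid genes lie at -0.12 and -0.23 in the si-SMaRT samples and the chaperones at -0.15 and 0.03, and with the trend removed they lie at -0.21 and -0.05 and at -0.12 and -0.02.

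Further genes of the same pathways were read from lists drawn up by function. Of 126 genes listed, 123 were in the table and 122 tested, and 0 passed the adjusted test (0 with voom as well), while 6 had an unadjusted p under 0.05 (4.92%, against 9.09% of all genes). Their median log2 fold change was -0.07 (-0.09 with the GC trend removed). In 17 genes both si-SMaRT samples were higher than the controls (13.9%, against 20.2% of all genes) and in 29 lower (23.8%, against 20.4%). By list, the medians are given as deposited and then with the GC trend removed. They were 0.11 and 0.03 for 14 other ER folding genes, -0.07 and -0.08 for 11 other degradation genes, and 0.01 and -0.13 for 19 genes of ER translocation and secretion. For 18 other ATF4 pathway genes they were -0.09 and -0.04, and for 12 eIF2 kinase and eIF2 subunit genes -0.02 and -0.12. For 14 other amino acid and one-carbon genes they were -0.07 and 0.02. For 17 other cytoplasmic tRNA synthetases they were -0.13 and -0.17, and for 17 mitochondrial ones -0.12 and -0.18. The sign of the median thus turned in the translocation list and in the other amino acid genes. Once the GC trend was removed, 4 of the 122 passed the adjusted test, against 4.57% of all genes. Cebpb, a dimer partner of ATF4, was then higher by 0.65 log2 units (adjusted p = 0.0347), but its RPKM as deposited was 6.20 and 6.49 in si-SCR and 11.4 and 4.09 in si-SMaRT, which overlap. Jdp2, a repressor of the AP-1 family, had 23.1 and 26.6 RPKM against 39.5 and 30.9, and was higher by 0.65 (adjusted p = 0.0427). Cth, which makes cysteine and is another ATF4 target, had 3.91 and 2.56 against 1.33 and 1.88, and was lower with a log2 fold change of -1.05 (adjusted p = 0.0315). Fars2, the mitochondrial synthetase for phenylalanine, had 9.26 and 8.56 against 5.33 and 5.19, and was lower with a log2 fold change of -0.68 (adjusted p = 0.0404).

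None of the 345 peaks of the lnc-SMaRT pull-down overlapped an exon of the 40 genes on the same strand. Of the 336 peaks of the LacZ pull-down, which used control probes, peaks overlapped an exon of 1 gene, Pdia3. Each pull-down was a single library, so that only presence in these lists can be stated.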

How the data were processed

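Total RNA of 4 samples was sequenced by the authors with a stranded, ribosomal RNA-depleted library. Per their methods, reads were trimmed with Trimmomatic, cleared of rRNA and tRNA with Bowtie 2, aligned to GRCm38 with TopHat2 and counted on Ensembl genes by htseq-count, and genes of low CPM were removed. The authors deposited RPKM values, made with edgeR on TMM-scaled library sizes. The deposited peak lists carry a p-value for each peak from Piranha, and the sources used here do not state which comparison of libraries they hold.

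Because the deposited values are RPKM and not counts, limma 3.58.1 (R 4.3.3; lmFit, eBayes with trend, two-sided) was run on log2(RPKM + 0.1) in place of the authors' count test, on the 11086 genes whose RPKM averaged 0.5 or more. Adjustment was by Benjamini-Hochberg over these, with a threshold of 0.05. Fold changes are on this scale and understate those of low genes. Reads were worked out from the steps of the RPKM values for all 11642 rows, and a factor common to the samples stayed unfixed in all but 6463 rows, where reads are lower limits. Transcript GC content came from GENCODE M21 (11478 rows), and its trend was removed per sample by loess (span 0.3). The test was tried on simulated data.

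The 40 genes and the lists were chosen with earlier results of these data known. Each role's gene of highest level, highest and lowest log2 fold change were named, and Hspa5, Xbp1, Atf4, Ddit3 and Asns. The labels do not say whether same-numbered samples came from the same cell population, and the main test did not pair them. The p-values, SEs and intervals combine the spread between 2 cell populations a group with a variance trend fitted over all genes. They are therefore not the replicate spread of each gene alone. Peaks needed 1 base of overlap. Other pseudocounts, filters, scalings, blocks, voom and leaving out samples were tried as alternatives.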

Additional observations from a re-analysis of the deposited data

How the results depend on the processing

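Of 284 results of the 19 named genes under alternatives, 260 kept their direction and their side of the threshold, 14 passed the threshold only under the alternative and 10 changed sign. Blocks, filters and the variance trend do not alter the fold change of a gene, so its direction was fixed in advance there. Most of the named genes also lay far from the threshold, so the count is no measure of robustness. Over all genes, 56 passed the adjusted p of 0.05, against 37 with quantile normalization, 103 with voom on the recovered reads, 501 with the GC trend removed and 24 to 2908 with a sample left out. Of the 40 genes 0 passed, against 1 (Trib3) with a pseudocount of 1, with a minimum mean RPKM of 5, with voom and with the GC trend removed, and 0 to 8 with a sample left out. Without si-SMaRT 1 these 8 were Ddit3, Dnajb9, Pdia3, Phgdh, Sars, Sdf2l1, Shmt2 and Trib3, and without si-SMaRT 2 they were Eif2ak3, Ppp1r15a and Trib3. In such fits the lone sample of a group is assumed to vary like the others. In each of them the share of the 40 genes that passed was below the share of all genes. Passing there therefore does not set the named genes apart.

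The median of the chaperones ranged from -0.15 to 0.047 with a sample left out. That of the amino acid genes ranged from -0.23 to -0.12 and was -0.12 with the GC trend removed. The difference of the medians ranged from -0.025 to 0.26 and was 0.045 with the GC trend removed, and the cause was not tested. Signs turned in Canx (0.18 with quantile normalization, -0.30 to 0.27 with a sample left out) and Hspa5 (0.086, and -0.255 to 0.044), and with a sample left out in Ppp1r15a (-0.061 to 0.75), Psat1 (-0.074 to 0.15) and Aldh18a1 (-0.045 to 0.25).

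Same-numbered samples deviated in opposite directions (correlation -0.36 over 11086 genes, -0.16 with the GC trend removed). The replicate trends with GC content also had opposite signs in si-SMaRT and si-SCR, so this correlation cannot decide whether same-numbered samples shared a cell population. The replicate block gave 96 calls over all genes and 0 among the 40 genes, and together with removal of the GC trend 524 and 1, with medians of -0.12 for the amino acid genes and 0.045 for the difference. A crossed pairing of the replicates, chosen after the data were seen, gave 487 calls over all genes and 1 among the 40.

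Depth did not limit the abundant genes, whereas Sdf2l1 rested on 57 to 101 reads a sample and Pycr1 on 104 to 143. Recovered reads were also few for Syvn1 (89 to 153), Dnajb9 (116 to 259), Eif2ak3 (155 to 251) and Ddit4 (188 to 226). For these 4 genes the recovered reads are lower limits, so few of them need not mean low depth. Chac1, near Ddit4 in RPKM and exon length, had 321 to 461 reads a sample. The 95% intervals of the 40 genes had a median width of 1.15 log2 units as deposited and 0.67 with the GC trend removed, at 2 samples a group in both.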
